A study of Mus musculus with 6 samples.

Results

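Respiratory complexes II, III and IV, the electron carrier cytochrome c and complex V (the ATP synthase) were followed through their nuclear genes in mouse liver. Every row of the count table was taken whose symbol begins with Sdh (complex II), Uqc or Cyc1 (complex III), Cycs (cytochrome c), Cox4 to Cox8 (complex IV) or Atp5 (complex V), leaving out rows named as pseudogenes (-ps) and rows with fewer than 10 reads over the 6 libraries. This gave 54 genes of the 56674 rows: 8 of complex II, 12 of complex III, 1 for cytochrome c, 16 of complex IV and 17 of complex V. Of the 54, 7 encode assembly factors (Sdhaf and Uqcc genes), 1 encodes a supercomplex factor (Cox7a2l), and the others carry the names of subunits. The choice used no measured difference between the diets. The smallest member was Cox4i2, with 28 reads over the 6 libraries, and Cox6b2 followed with 116. Just outside stood Cox6a2 with 6 reads, and Cox7b2 and Cox8c with 0.

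The study asked how prolonged exposure to PB-MP, a polypropylene black microplastic, bears on hepatic gene expression. Male C57BL/6 mice had received PB-MP in their chow (3 libraries) or normal chow (control, 3 libraries), and both groups had been reared for 71 weeks. The labels give no dose or particle size, nor whether each library was a separate animal, so the p-values measure only the spread between these libraries. Values are CPM (counts scaled to a common library total, with factors from the trimmed mean of M-values, TMM) from libraries of 68357478 to 112566641 counted reads. A count of 0 allows up to 3 reads, or 0.0285 to 0.0495 CPM, which covers counting error only.

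The respiratory chain passes electrons from nutrients to oxygen and uses the energy to pump protons across the inner mitochondrial membrane, and the ATP synthase lets them flow back to make ATP. Complex II oxidises succinate and is built from nuclear genes only, whereas complexes III, IV and V each join nuclear subunits with subunits encoded by mitochondrial DNA. Hepatocytes are rich in mitochondria and pay for gluconeogenesis and urea synthesis with this ATP.

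No nuclear gene of complexes II to V differed between PB-MP and control past an adjusted p of 0.05 (edgeR quasi-likelihood test, Benjamini-Hochberg adjustment over 17871 genes), where the background was 0.00% of all genes in either direction. An error after ± is an SE (n = 3 libraries a group) unless marked SD. The smallest adjusted p among the members was 0.325, and 0 of them passed the same threshold with DESeq2 (background 2.44%) or limma-voom (background 0.00%). Estimates were below 0 for 42 of the 53 members tested, against 49.4% of all genes, with a median log2 fold change (PB-MP over control) of -0.22, against 0.01 over all genes. At an unadjusted p below 0.05, 4 members were lower (Cox6c2, Atp5g3, Cox6b1 and Cox5a; background 4.74%) and 0 were higher (background 7.35%). PB-MP and control did not overlap for 2 members with lower values in PB-MP, Cox6c2 and Atp5g3 (background 8.49%), and for 0 with higher values (background 11.4%), shares that are below those of all genes. For 39 of the 53 members the 95% interval excluded a change of 2-fold or more in either direction, against 45.7% of all genes. In bulk liver, fewer cells of a type and less RNA per cell cannot be told apart.

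These counts depended on single libraries. Without PB-MP replicate 3, 52 of 53 estimates were below 0, the median was -0.43, and 23 members had an unadjusted p below 0.05 with lower values (background 6.01%). Without control replicate 2 there were 9 such members (background 7.09%) at a median of -0.34. With both of these libraries left out together there were 38 (background 11.4%) at a median of -0.49 and still 0 past an adjusted p of 0.05. This pair was left out with the members' values known. PB-MP replicate 3 was the highest PB-MP library for 47 of 53 members (37.1% of all genes). Control replicate 2 was the lowest control for 37 (36.0% of all genes). Leaving out both therefore favours lower estimates, and the 38 are no separate support for a difference. With quality weights, limma's down-weighting of libraries that stand apart, 28 members had an unadjusted p below 0.05 with lower values (background 9.56%). The number was 2 without PB-MP replicate 1 (background 3.33%), 1 without PB-MP replicate 2 (background 4.14%), 1 without control replicate 1 (background 2.84%) and 0 without control replicate 3 (background 2.98%), at medians of -0.10, -0.12, -0.16 and -0.14. With library size as the only scaling, 28 of 53 estimates were below 0, against 28.5% of all genes, and the median was -0.0036 where that of all genes was 0.23, so the distance between the medians was -0.23.

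**Figure D1:**
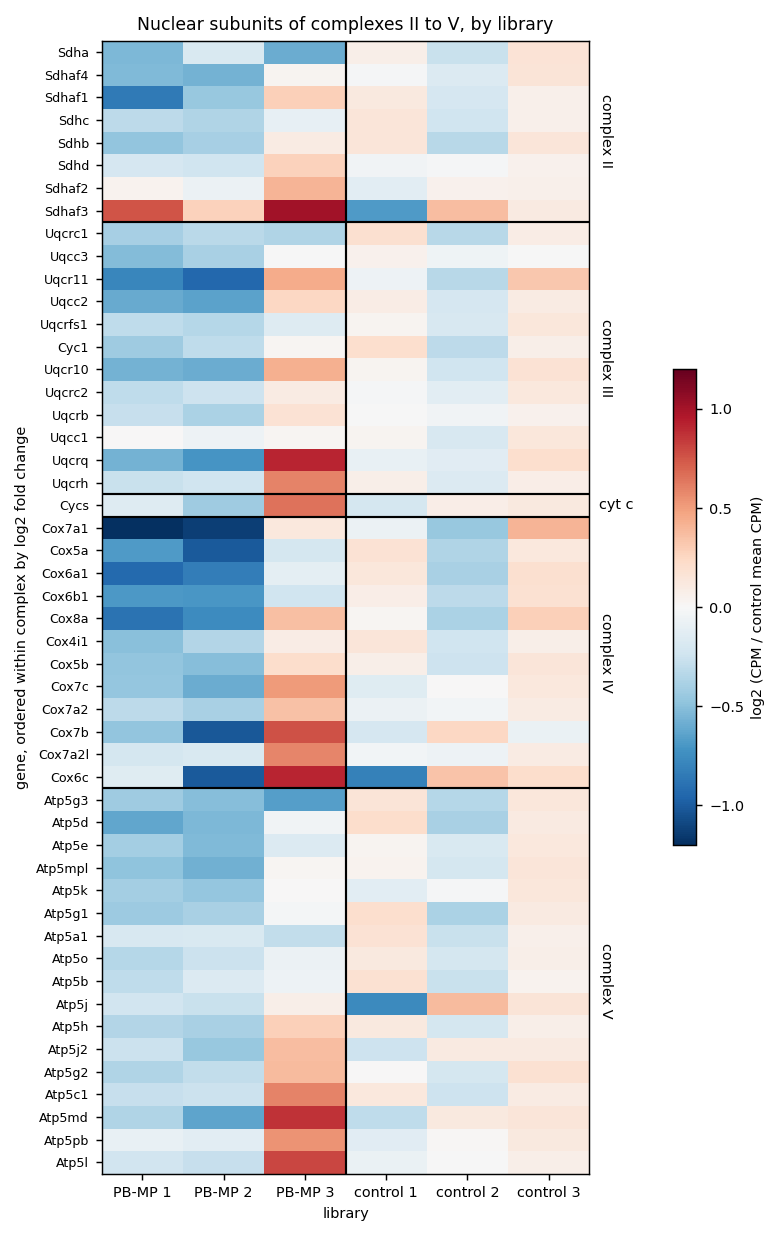
Each row is 1 of the 50 members with a mean of at least 1 CPM and each column 1 library; colour gives log2 of the CPM over the control mean (blue lower, red higher, saturated at the ends of the scale). PB-MP replicates 1 and 2 are blue in most rows, while PB-MP replicate 3 is red for many small subunits and blue for Sdha, Uqcrc1 and Atp5g3.

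The 3 PB-MP libraries did not move together. PB-MP replicates 1 and 2 were both below every control library for 39 of the 53 tested members, against 16.8% of all genes. This pair was grouped with the members' values known, and the members share libraries. The count is therefore a description and no separate support for a difference. PB-MP replicate 3 was above every control library for 26 of 53, against 31.6% of all genes, and below every control library for 6, against 30.3% of all genes. The median member stood at -0.40, -0.39 and 0.16 on the log2 scale relative to the control mean in PB-MP replicates 1, 2 and 3, against 0.04, -0.19 and 0.13 in control replicates 1, 2 and 3. Control replicate 2 was the lowest control for 37 of 53 members, against 36.0% of all genes. The labels give no batch.

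Complex II was lower in PB-MP than in control replicates 1 and 3 in its summed level, which was not tested. The sum over its 8 genes was 791, 876 and 959 CPM in PB-MP replicates 1, 2 and 3, against 1113, 904 and 1148 CPM in control replicates 1, 2 and 3. PB-MP replicate 3 lay above control replicate 2. Means were 875 ± 83.8 CPM in PB-MP and 1055 ± 132 CPM in control (SD, n = 3 each), and 6 of the 8 estimates were below 0 (median -0.24). Sdha, the flavoprotein that oxidises succinate and the complex II gene with most reads, had 302, 387 and 291 CPM in the PB-MP libraries, against 460.3, 365 and 491 CPM in the control libraries. Its log2 fold change was -0.43 ± 0.19, edgeR adjusted p = 0.436, and PB-MP replicate 2 overlapped the controls. Sdhb, the iron-sulfur subunit, had 162, 171 and 241 CPM in the PB-MP libraries, against 249, 179 and 249 CPM in the control libraries, and its PB-MP replicate 3 stood among the controls (-0.24 ± 0.22). Sdhc, a membrane anchor, had 146, 141 and 169.8 CPM in the PB-MP libraries, against 201, 154 and 189.7 CPM in the control libraries (-0.25 ± 0.17). The second anchor, Sdhd, was at -0.04 ± 0.18.

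The 4 assembly factors of complex II were split, with 2 estimates above 0 and 2 below. Sdhaf3, which helps mature the iron-sulfur subunit, had 6.43, 4.62 and 7.66 CPM in the PB-MP libraries, against 2.39, 4.95 and 4.13 CPM in the control libraries. At 0.71 ± 0.33, edgeR adjusted p = 0.447 it had the highest estimate of all members, though PB-MP replicate 2 overlapped the controls. Sdhaf2, which inserts the flavin into Sdha, was at 0.14 ± 0.19, but Cpsf7, a gene annotated on the opposite strand, overlaps it and had 53.0% of its read number. Sdhaf4 and Sdhaf1 were at -0.33 ± 0.23 and -0.26 ± 0.31.

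In complex III, PB-MP replicate 3 was near the other PB-MP libraries for the core subunit Uqcrc1, but not for every core subunit. Relative to the mean of PB-MP replicates 1 and 2, it was 1.12-fold for Uqcrfs1, 1.29-fold for Uqcrc2 and 1.31-fold for Cyc1. The small subunits of complex III ran from 1.42-fold for Uqcrb to 2.93-fold for Uqcrq. The summed level of its 12 genes was 1368, 1357 and 2297 CPM in PB-MP replicates 1, 2 and 3, against 1904, 1599 and 2046 CPM in control replicates 1, 2 and 3, with PB-MP replicate 3 the highest and PB-MP replicates 1 and 2 the lowest of the 6 libraries. Means were 1674 ± 539.7 CPM in PB-MP and 1849.8 ± 229 CPM in control (SD, n = 3 each), and 10 of 12 estimates were below 0 (median -0.19). Uqcrc1, a core protein facing the matrix, had 219, 231 and 225 CPM in the PB-MP libraries, against 328, 228 and 307 CPM in the control libraries. The PB-MP values of Uqcrc1 lay close together, and control replicate 2 stood among them (log2 fold change -0.36 ± 0.18, edgeR adjusted p = 0.466). Uqcrfs1, the Rieske iron-sulfur protein, had 136, 132 and 150.0 CPM in the PB-MP libraries, against 172, 146 and 184 CPM in the control libraries (-0.27 ± 0.15), with PB-MP replicate 3 just above control replicate 2. Cyc1, the cytochrome c1 subunit that hands electrons to cytochrome c, had 148, 160.1 and 202 CPM in the PB-MP libraries, against 228, 159 and 208 CPM in the control libraries (-0.22 ± 0.20). The second core protein, Uqcrc2, was at -0.14 ± 0.17.

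Among the small subunits, Uqcrq, the complex III gene with most reads, had 237, 216 and 664 CPM in the PB-MP libraries, against 330.0, 320.2 and 404 CPM in the control libraries. PB-MP replicate 3 was above, and PB-MP replicates 1 and 2 were below, all controls, so the estimate of 0.08 ± 0.43, edgeR adjusted p = 0.955 averages libraries on both sides, and it was -0.64 without PB-MP replicate 3. The same order of libraries held for Uqcr11, Uqcr10, Uqcrh and Uqcrb, accessory subunits with estimates from -0.28 to 0.09. Uqcc3, one of 3 factors that support the making of mitochondrially encoded cytochrome b, had 14.8, 16.3 and 21.2 CPM in the PB-MP libraries, against 22.1, 20.5 and 21.2 CPM in the control libraries (-0.29 ± 0.19). The other two, Uqcc2 and Uqcc1, were at -0.27 ± 0.28 and -0.01 ± 0.15.

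Cycs, the soluble protein that carries electrons from complex III to complex IV and triggers apoptosis when released, had 60.0, 49.9 and 105 CPM in the PB-MP libraries, against 57.8, 70.6 and 72.6 CPM in the control libraries. Its groups overlapped (log2 fold change 0.10 ± 0.29, edgeR adjusted p = 0.917), with PB-MP replicate 3 the highest of the 6 libraries, and the estimate was -0.29 without it.

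Complex IV held 3 of the 4 members with an unadjusted p below 0.05, among 15 tested (background 4.74%). These 3 include Cox6c2, which is annotated as a processed pseudogene. The median half-width of the intervals in complex IV was 0.72, against 0.55 over all members and 0.73 over all genes. The summed level of its 16 genes was 1474, 1424 and 2554 CPM in PB-MP replicates 1, 2 and 3, against 2222, 1928 and 2416 CPM in control replicates 1, 2 and 3, and means were 1817 ± 638 CPM in PB-MP and 2189 ± 245 CPM in control (SD, n = 3 each). Of 15 tested genes, 13 had estimates below 0 (median -0.23, and -0.72 without PB-MP replicate 3). Cox6b1, a subunit on the intermembrane side that helps hold the dimer, had 173, 172 and 236 CPM in the PB-MP libraries, against 295, 225 and 317 CPM in the control libraries. PB-MP replicate 3 lay between the controls and the other PB-MP libraries were below all of them (log2 fold change -0.53 ± 0.21, edgeR adjusted p = 0.387). Cox5a, a matrix-side subunit, had 75.4, 60.3 and 105 CPM in the PB-MP libraries, against 137, 94.0 and 132 CPM in the control libraries and showed the same order (log2 fold change -0.59 ± 0.25, edgeR adjusted p = 0.412). Cox6a1, the liver form of subunit VIa, had 171, 183 and 300.4 CPM in the PB-MP libraries, against 357, 248 and 371 CPM in the control libraries (-0.58 ± 0.28).

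Other core accessory subunits of complex IV were nearer 0. Cox4i1, the complex IV gene with most reads, had 333, 371 and 503 CPM in the PB-MP libraries, against 523, 399 and 495 CPM in the control libraries (-0.23 ± 0.21). Cox8a, the ubiquitous form of subunit VIII, had 109, 119 and 259 CPM in the PB-MP libraries, against 204, 155 and 245 CPM in the control libraries, a range that in PB-MP spanned that of the controls (-0.31 ± 0.36). Cox7a2, the liver form of subunit VIIa, had 94.0, 89.2 and 149 CPM in the PB-MP libraries, against 111, 114 and 126 CPM in the control libraries (-0.08 ± 0.22). In Cox8a and Cox7a2 alike, PB-MP replicate 3 was above and PB-MP replicates 1 and 2 were below all controls. Cox6c had 113, 62.4 and 236 CPM in the PB-MP libraries, against 71.6, 159 and 145 CPM in the control libraries, and Cox7b had 80.2, 54.9 and 189 CPM in the PB-MP libraries, against 96.9, 132 and 105 CPM in the control libraries. These last members varied within both groups (0.13 ± 0.50 and -0.04 ± 0.43), and the gene Vps13b, annotated on the opposite strand across Cox6c, had 18.0% of its read number. Cox7a2l, classed here as a supercomplex factor, was at 0.11 ± 0.24, and Cox5b and Cox7c were at -0.22 ± 0.24 and -0.09 ± 0.31.

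**Figure D2:**
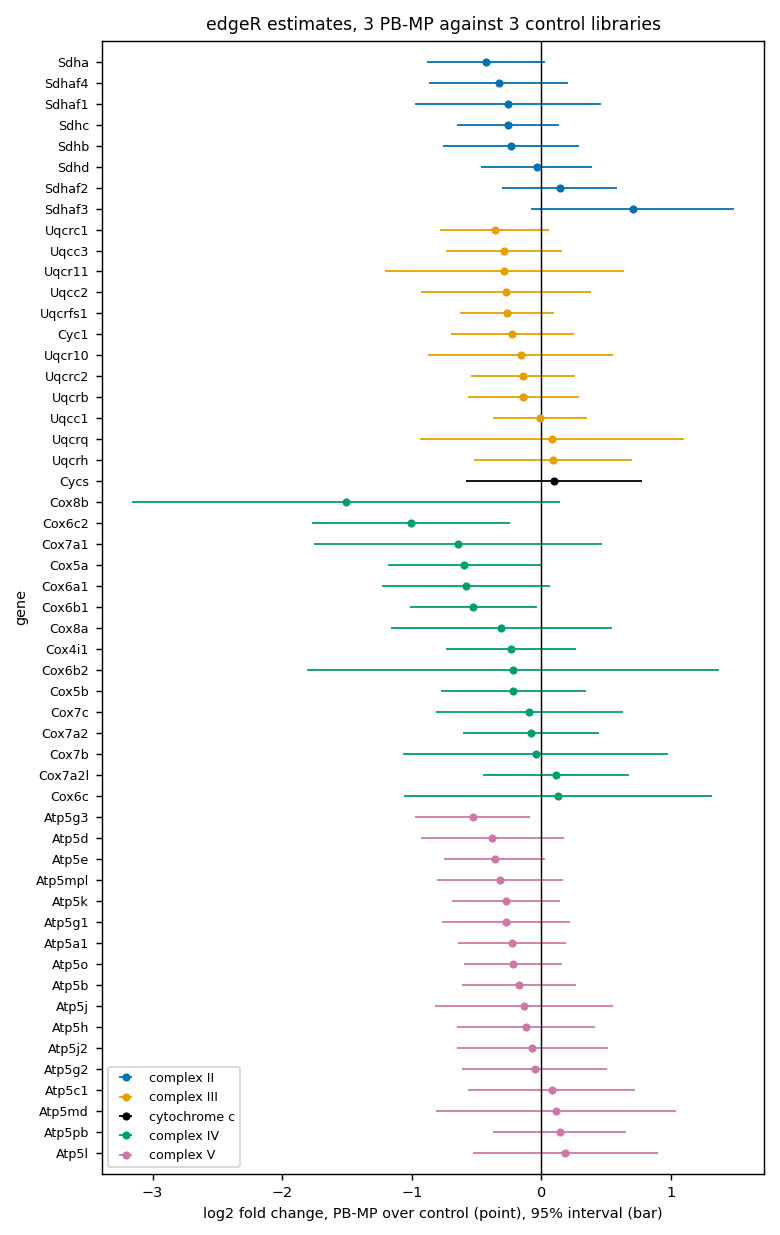
Points are edgeR log2 fold changes of the 53 tested members, PB-MP over control, with 95% intervals as bars and colours for the complexes. Most points lie left of 0, and the intervals of Cox6c2, Cox5a, Cox6b1 and Atp5g3 exclude 0 before adjustment.

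Complex IV is also where tissue-restricted isoforms exist, and these were low in all libraries. Cox7a1, the heart and skeletal muscle form of subunit VIIa, had 0.545, 0.674 and 1.61 CPM in the PB-MP libraries, against 1.40, 1.07 and 1.95 CPM in the control libraries. Its share of the summed CPM of Cox7a1 and Cox7a2 was 0.577%, 0.750% and 1.07% in PB-MP replicates 1, 2 and 3, against 1.24%, 0.932% and 1.53% in control replicates 1, 2 and 3, and the groups overlapped. Cox8b, a form of subunit VIII found in mouse heart, muscle and brown fat, had 7, 16 and 8 reads in PB-MP, against 21, 7 and 64 reads in control, and its interval spanned 0 (log2 fold change -1.51 ± 0.70, edgeR adjusted p = 0.444). Cidea, a lipid droplet protein of brown fat that is also induced in fatty liver, was likewise low in control replicate 2, with 12.7, 2.28 and 13.2 CPM in PB-MP, against 81.1, 13.4 and 65.3 CPM in control. Ucp1, which defines brown fat, had 0 reads in all 6 libraries, and the markers Dio2 and Zic1 had at most 6 reads in any library. The summed 4 brown fat markers (2.35 to 13.2 CPM in PB-MP and 13.4 to 81.1 CPM in control) were thus nearly all Cidea. Of the 8 skeletal muscle markers, 6 (Acta1, Ckm, Myh1, Myh2, Myh4 and Tnnt3) had 0 reads in every library, and the summed markers stayed at 0.418 to 0.872 CPM in PB-MP and 0.439 to 0.710 CPM in control. The part of these cell types in the isoform values was not tested.

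The testis-type Cox6b2 had 14, 6 and 37 reads in PB-MP, against 10, 19 and 30 reads in control. Cox4i2, the form linked to lung and low oxygen, had 5, 4 and 8 reads in PB-MP, against 6, 0 and 5 reads in control, and was not tested. The muscle form Cox6a2 had 0, 0 and 3 reads in PB-MP, against 0, 3 and 0 reads in control, no more than a count of 0 allows. Cox6c2, named as a second form of Cox6c but annotated as a processed pseudogene in GENCODE M21, had 0.444, 0.284 and 0.338 CPM in the PB-MP libraries, against 0.645, 0.677 and 0.818 CPM in the control libraries. Its groups did not overlap and it had the smallest p of the members (log2 fold change -1.01 ± 0.32, edgeR adjusted p = 0.325), on 24 to 86 reads per library. Reads of such a copy and of Cox6c may be exchanged, as the authors' handling of reads with several matches is not given.

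Complex V, the ATP synthase, had no gene whose level differed past the adjusted threshold, and PB-MP replicate 3 was again above the other PB-MP libraries in its sum. The sum of its 17 genes was 3506, 3544 and 4487 CPM in PB-MP replicates 1, 2 and 3, against 4624, 3781 and 4615 CPM in control replicates 1, 2 and 3, and means were 3846 ± 556 CPM in PB-MP and 4340.2 ± 484 CPM in control (SD, n = 3 each). Of 17 estimates, 13 were below 0 (median -0.17), and 16 of the 17 intervals lay within -1 to 1 (45.7% of all genes). In the catalytic head, Atp5b, the beta subunit that makes ATP and the member with most reads, had 842, 927 and 997 CPM in the PB-MP libraries, against 1177, 864 and 1071 CPM in the control libraries (-0.17 ± 0.19). Atp5a1, the alpha subunit, had 718, 719.7 and 665 CPM in the PB-MP libraries, against 921, 681 and 853 CPM in the control libraries (-0.22 ± 0.18). For both, control replicate 2 lay within the PB-MP values. In the central stalk, Atp5d (delta) had 174, 186 and 261 CPM in the PB-MP libraries, against 311, 206 and 290.5 CPM in the control libraries (-0.38 ± 0.23). Atp5e (epsilon) had 106, 97.7 and 126 CPM in the PB-MP libraries, against 144, 124 and 154 CPM in the control libraries (log2 fold change -0.36 ± 0.17, edgeR adjusted p = 0.441), and PB-MP replicate 3 overlapped control replicate 2. The gamma subunit Atp5c1 was at 0.08 ± 0.27, with PB-MP replicate 3 at 301 CPM and the other 5 libraries at 164 to 217 CPM.

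The proton-carrying ring of complex V is made of subunit c, which 3 genes encode with the same mature protein and different import signals. Atp5g3, the gene of the 3 with most reads, had 299, 283 and 255 CPM in the PB-MP libraries, against 448, 318 and 443 CPM in the control libraries. All PB-MP libraries lay below all controls, PB-MP replicate 3 being the lowest. The log2 fold change was -0.53 ± 0.19, edgeR adjusted p = 0.347, with an interval of -0.97 to -0.09. Atp5g1 had 99.9, 103 and 133 CPM in the PB-MP libraries, against 156, 104 and 146 CPM in the control libraries (-0.27 ± 0.21), and Atp5g2 had 70.6, 73.7 and 118 CPM in the PB-MP libraries, against 91.1, 78.2 and 103 CPM in the control libraries (-0.05 ± 0.24). Summed over the 3 genes, subunit c came to 469.9, 459.9 and 506 CPM in the PB-MP libraries, against 695, 499.7 and 692 CPM in the control libraries. The share of Atp5g3 in this sum was 58.5% ± 7.16 in PB-MP and 64.0% ± 0.430 in control (SD, n = 3 each), with PB-MP replicate 3 at 50.3% and the other 5 libraries at 61.5% to 64.4%. Neither the sum nor the share was tested. The peripheral stalk genes Atp5o, Atp5h, Atp5j and Atp5pb were at -0.22 ± 0.16, -0.12 ± 0.22, -0.13 ± 0.29 and 0.14 ± 0.22, where Atp5j overlaps Gabpa and Atp5o overlaps Itsn1 on the opposite strand (34.7% and 19.3% of their read numbers). The small membrane subunits Atp5k, Atp5j2, Atp5l, Atp5md and Atp5mpl ran from -0.32 (Atp5mpl) to 0.19 (Atp5l).

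**Figure D3:**
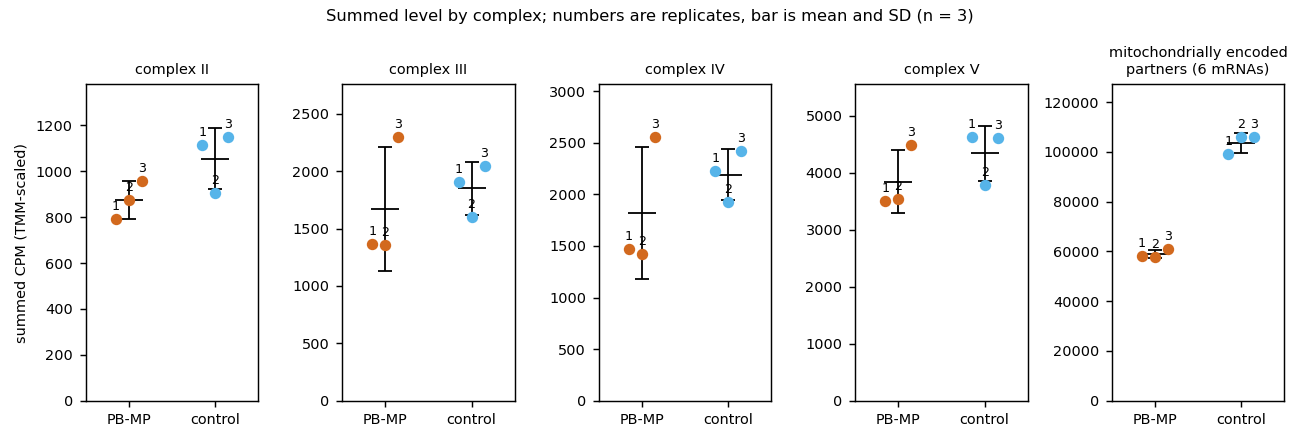
Points give summed TMM-scaled CPM per library, labelled by replicate, with PB-MP left of control in each panel and the mean and SD (n = 3) as bars; every axis starts at 0. PB-MP replicate 3 stands apart from replicates 1 and 2 in complexes III, IV and V, while the 6 mitochondrially encoded mRNAs of the last panel separate the groups.

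Per kilobase of annotated transcript, Uqcrq stood highest (919 CPM per kb in PB-MP and 868 in control), followed by Cox4i1 (539.8 CPM per kb in PB-MP and 634 in control) and Atp5b (481 CPM per kb in PB-MP and 541 in control), averaged over all 6 libraries. The lowest subunit of the common forms was Cycs with 23.0 CPM per kb in PB-MP and 21.5 in control, and the complex II subunit Sdhc had 48.0 CPM per kb in PB-MP and 57.3 in control. Assembly factors ranged from 1.44 CPM per kb in PB-MP and 0.884 in control for Sdhaf3 to 34.3 CPM per kb in PB-MP and 41.4 in control for Uqcc2. The lengths are those of the shortest principal transcript in GENCODE M21. Genes with alternative ends, such as Cycs and Sdhc, may be placed too low if their liver transcripts are shorter than this, and too high if longer.

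The mRNAs that mitochondrial DNA supplies to the same complexes are given beside their nuclear partners. mt-Co1, the catalytic subunit of complex IV, had 26085, 27184 and 30080.1 CPM in the PB-MP libraries, against 52639, 48501 and 53343 CPM in the control libraries (log2 fold change -0.89 ± 0.24, edgeR adjusted p = 0.251). All PB-MP libraries, PB-MP replicate 3 included, were below all controls. mt-Co2, which takes electrons from cytochrome c, was at -0.85 ± 0.20, mt-Cytb of complex III at -0.72 ± 0.24, and mt-Atp6 and mt-Atp8 of complex V at -0.96 ± 0.26 and -0.67 ± 0.22. These 5 had an unadjusted p below 0.05 with lower values (background 4.74%) and no overlap between groups (background 8.49%), and mt-Co3 was the exception among the 6 (-0.48 ± 0.34). None passed the adjusted threshold. For complex IV the summed CPM of mt-Co1, mt-Co2 and mt-Co3 divided by that of the nuclear members was 23.0, 24.4 and 16.3 in PB-MP replicates 1, 2 and 3, against 30.3, 32.3 and 28.2 in control replicates 1, 2 and 3, without overlap. For complex V (mt-Atp6 and mt-Atp8) the ratio was 3.31, 3.11 and 1.98 in PB-MP replicates 1, 2 and 3, against 3.34, 5.31 and 4.12 in control replicates 1, 2 and 3, also without overlap, though PB-MP replicate 1 and control replicate 1 were close. For complex III (mt-Cytb) it was 9.39, 8.95 and 4.52 in PB-MP replicates 1, 2 and 3, against 8.56, 14.6 and 9.11 in control replicates 1, 2 and 3, and the groups overlapped. These ratios carry no test, and PB-MP replicate 3 was the lowest library in each.

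Related gene groups were set beside the members by the same counts. Of 39 tested complex I subunits, the entry point for electrons from NADH, 34 had estimates below 0 (median -0.23), PB-MP replicates 1 and 2 were both below all controls for 32 (82.1%, against 16.8% of all genes), and PB-MP replicate 3 was above all controls for 18 (46.2%, against 31.6% of all genes). Ndufa10, an accessory subunit, had the smallest p among them, with 115, 119 and 119 CPM in the PB-MP libraries, against 199, 141 and 212 CPM in the control libraries (log2 fold change -0.64 ± 0.19, edgeR adjusted p = 0.286). Its groups did not overlap, and Ndufv3 came next at -0.47 ± 0.20. For 78 mitochondrial ribosomal proteins the median was -0.11, led by Mrpl45 (-0.55 ± 0.21) and Mrpl16 (-0.50 ± 0.19), and for 95 tested cytosolic ribosomal protein rows (taken by the prefixes Rpl and Rps, which also match some kinases and gene copies) it was 0.02, led by Rpl37rt (-1.16 ± 0.25) and the kinase gene Rps6ka1 (-0.57 ± 0.18). In the cytosolic ribosomal rows PB-MP replicates 1 and 2 were below all controls for 68 of 95 (71.6%, against 16.8% of all genes). PB-MP replicate 3 was above all controls for 70 of 95 (73.7%, against 31.6% of all genes). These counts use the grouping of PB-MP replicates 1 and 2 that was made with the members' values known.

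**Figure D4:**
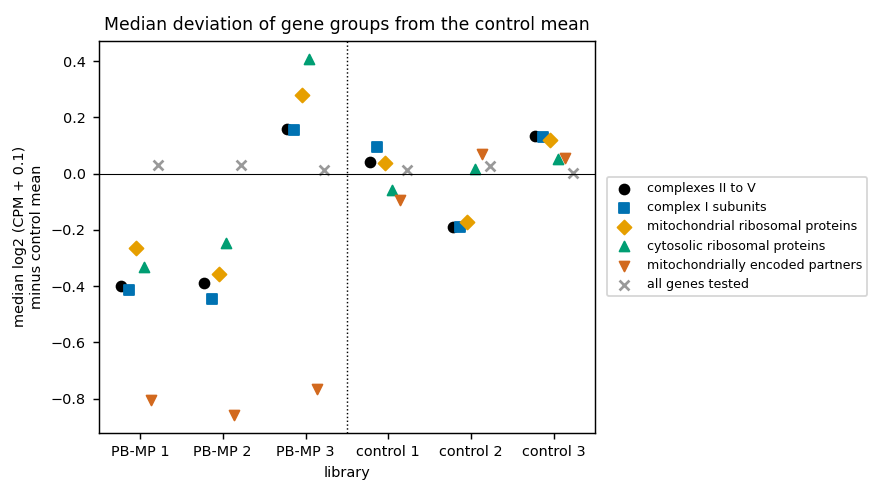
For each library (PB-MP left, control right), symbols give the median log2 deviation of a gene group from the control mean, after adding 0.1 CPM. The members (black circles) sit at -0.40 and -0.39 in PB-MP replicates 1 and 2 and at 0.16 in replicate 3, and complex I follows them, while the mitochondrially encoded partners are low in all 3 PB-MP libraries.

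Further assembly factors, carriers and regulators lay outside the rule. Of 30 tested assembly factors of complexes III and IV, 21 had estimates below 0 (median -0.12), with 0 at an unadjusted p below 0.05 in either direction. Lrpprc, which stabilises mitochondrial mRNAs, had 70.3, 72.7 and 55.0 CPM in the PB-MP libraries, against 79.0, 80.8 and 90.1 CPM in the control libraries without overlap (log2 fold change -0.34 ± 0.16, edgeR adjusted p = 0.453), and Cox10, a heme synthesis enzyme of complex IV, was at -0.39 ± 0.20. All 5 assembly factors of complex V had estimates below 0 (median -0.19), among them Atpaf1, a chaperone of the beta subunit, with 7.21, 7.21 and 9.32 CPM in the PB-MP libraries, against 10.4, 10.8 and 12.1 CPM in the control libraries (log2 fold change -0.49 ± 0.19, edgeR adjusted p = 0.385), and Fmc1 at -0.44 ± 0.29. The 6 carriers and channels of the mitochondrial membranes had a median of -0.15, with Vdac1 at -0.22 ± 0.18 and the phosphate carrier Slc25a3 at -0.15 ± 0.15. Of 8 transcriptional regulators of respiratory genes, 6 had estimates above 0 (median 0.13). Gabpb1, a subunit of the GABP factor, had 6.05, 6.12 and 6.36 CPM in the PB-MP libraries, against 4.95, 5.76 and 5.35 CPM in the control libraries without overlap (log2 fold change 0.21 ± 0.18, edgeR adjusted p = 0.684), and Ppargc1a, the coactivator PGC-1alpha, was at 0.37 ± 0.33.

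The distance between PB-MP replicate 3 and the other PB-MP libraries differed with transcript length. PB-MP replicate 3 was at least 2-fold above the mean of PB-MP replicates 1 and 2 for 10 of the 50 members with at least 1 CPM, against 4.04% of all genes at that level, and 9 of the 10 had transcripts under 600 bases. It was below that mean for 3 members, against 53.3% of all genes. The ratio ran from 0.846 for Sdha to 2.93 for Uqcrq. On the log2 scale, after adding 0.1 CPM, the median distance of PB-MP replicate 3 from the other PB-MP libraries was 0.86 for the 20 members under 0.6 kb, 0.54 for the 11 of 0.6 to 1 kb, 0.50 for the 11 of 1 to 2 kb and 0.24 for the 7 members of 2 to 4 kb. The 1 member over 4 kb, Sdhaf3, was at 0.48 and did not continue this fall. Over all genes at 1 CPM or more the median distance was 0.35 for 716 genes under 0.6 kb, 0.45 for 1092 genes of 0.6 to 1 kb, 0.19 for 3200 genes of 1 to 2 kb, -0.10 for 4638 genes of 2 to 4 kb and -0.42 for 2677 genes over 4 kb. Across the 50 members, which share libraries and depth, this distance and length had a Spearman's rho of -0.47 as a description, and a Pearson's r with log2 length of -0.47. Across 12323 genes rho was also -0.47, but r was -0.17. PB-MP replicate 3 also had the lowest share of 18S ribosomal RNA reads, 0.707% against 3.61% and 9.42% in PB-MP replicates 1 and 2 and 1.15% to 11.2% in control. The part of transcript length or RNA composition in the members' values was not tested.

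**Figure D5:**
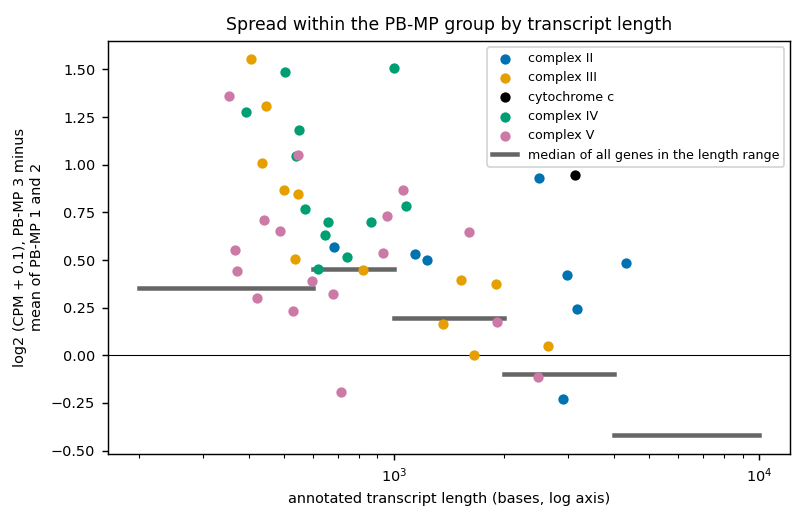
Each point is 1 of 50 members, placed by annotated transcript length (log axis) and by the log2 distance of PB-MP replicate 3 from the mean of PB-MP replicates 1 and 2; grey lines give the median of all genes of a length range at 1 CPM or more. Many short members reach well above the grey lines, and Sdha, Atp5g3 and Atp5a1 lie below 0.

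Many promoters of respiratory genes are known targets of the factors NRF1 and GABP, so their windows were searched for both motifs. Windows from RefSeq of 250 bases before to 50 after the start (assembly GRCm38.p6, not the GRCm39 of the submitters' processing notes) matched by symbol for 43 of the 54 members. The NRF1 core GCATGCGC, on either strand, was in 8 of 43 members (Atp5g2, Atp5k, Atp5l, Cox6a1, Cycs, Sdhb, Uqcr11 and Uqcrc1; 18.6%) and in 3.05% of 27025 genes, and the ETS motif CCGGAAGT of GABP was in 4 of 43 (Atp5h, Cox8a, Uqcr11 and Uqcrh; 9.30%) and in 4.31% of genes. The 27025 genes were not matched to the members for expression or base content, and the shares were not compared by a test. A match is a description of letters, not a site. The windows of Uqcrc1 (chr9:108936398-108936697, plus strand) and Cycs (chr6:50566520-50566819, minus strand) are shown as members with the NRF1 core, in capitals, which begins at 30 and -60 with the start as 0. In Uqcrc1 a copy on each strand overlaps, which lengthens the capitals. The window of Atp5g3 (chr2:73911277-73911576, minus strand), the subunit with the smallest p that has a window, holds neither motif. Sequences run 5′ to 3′ on the strand of the gene.
Uqcrc1: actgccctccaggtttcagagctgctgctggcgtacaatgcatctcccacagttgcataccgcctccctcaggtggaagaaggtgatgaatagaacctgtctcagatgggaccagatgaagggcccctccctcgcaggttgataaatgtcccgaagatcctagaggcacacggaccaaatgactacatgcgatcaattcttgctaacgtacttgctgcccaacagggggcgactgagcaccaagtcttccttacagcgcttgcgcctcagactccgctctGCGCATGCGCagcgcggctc
Cycs: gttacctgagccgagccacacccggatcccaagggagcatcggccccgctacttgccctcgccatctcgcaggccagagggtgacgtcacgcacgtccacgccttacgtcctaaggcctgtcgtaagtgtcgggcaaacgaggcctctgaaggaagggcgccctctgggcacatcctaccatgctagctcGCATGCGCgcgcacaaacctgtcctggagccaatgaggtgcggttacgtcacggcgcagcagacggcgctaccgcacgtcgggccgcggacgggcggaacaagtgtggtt
Atp5g3: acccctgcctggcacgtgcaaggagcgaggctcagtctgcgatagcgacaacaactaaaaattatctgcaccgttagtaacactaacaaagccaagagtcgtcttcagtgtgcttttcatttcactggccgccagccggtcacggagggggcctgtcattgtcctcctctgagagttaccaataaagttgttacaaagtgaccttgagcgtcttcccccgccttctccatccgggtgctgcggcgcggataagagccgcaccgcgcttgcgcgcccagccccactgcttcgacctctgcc

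The labelled tissue was checked against 6 hepatocyte markers (Alb, Ttr, Apoa1, Cps1, Cyp2e1 and Fgb), which summed to 67273 to 77829 CPM in PB-MP and 61902 to 78752 CPM in control. Alb made up most of this sum, at 49897 to 54433 CPM in PB-MP and 47165 to 56244 CPM in control. Apoa1 and Cyp2e1 varied more than the sum. Apoa1 had 2860, 3708 and 7076 CPM in PB-MP, against 1160, 1185 and 3673 CPM in control. Cyp2e1 had 5486, 6043 and 6709 CPM in PB-MP, against 10121, 4709 and 7741 CPM in control. Erythroid markers summed to 429.7 to 633 CPM in PB-MP and 264 to 507 CPM in control, lowest in control replicate 2. White adipocyte markers summed to 8.62 to 22.5 CPM in PB-MP and 20.3 to 70.3 CPM in control, with Lep at 0 reads in every library. Within this sum Cidec had 12.8, 4.23 and 13.5 CPM in PB-MP, against 57.9, 13.9 and 41.7 CPM in control, and Cfd was also lower in PB-MP. Fabp4 was not lower, with 3.94, 3.77 and 7.56 CPM in PB-MP, against 3.70, 4.22 and 4.78 CPM in control. Adipoq and Plin1 had at most 9 reads in any library. Macrophage markers summed to 94.8 to 188 CPM in PB-MP and 74.3 to 100.5 CPM in control, highest in PB-MP replicate 3. Endothelial markers summed to 48.8 to 84.8 CPM in PB-MP and 62.9 to 75.4 CPM in control, and smooth muscle markers to 5.46 to 8.39 CPM in PB-MP and 10.2 to 10.6 CPM in control. Within the endothelial sum Stab2 had 3.26, 31.1 and 2.51 CPM in PB-MP, against 23.3, 4.29 and 19.4 CPM in control. Clec4g had 15.8, 19.4 and 38.6 CPM in PB-MP, against 20.4, 23.4 and 16.3 CPM in control, and Pecam1 and Kdr varied less. Cholangiocyte, cardiac and pancreatic acinar markers summed to at most 24.6 CPM in any library. The acinar sum was Cela1 alone, as Prss2, Cpa1 and Pnlip had 0 reads in every library. The part of these cell types in the members' values was not tested.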

How the data were processed

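Poly(A)-selected liver RNA was sequenced from 6 libraries built with a directional kit, per the labels' protocols. Build GRCm39 and bcl2fastq are named in the submitters' processing notes; the aligner, annotation, strand setting and treatment of multi-matching reads were left unstated, that is, not given in the sources used here. Raw counts for 56674 named rows were deposited by the authors, and the single files equalled the columns of the series table in all 6 cases. Of these rows, 939 share a name with another row (0.0308% of reads). Such a name was given to its largest row.

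Genes passing filterByExpr (minimum count 10, minimum total 15) numbered 17871. They were scaled by TMM and tested with the quasi-likelihood test of edgeR 4.0.16 in R 4.3.3 (design: diet), at a Benjamini-Hochberg adjusted p below 0.05. An SE is the log2 fold change over the square root of F. DESeq2 1.42.0, limma 3.58.1, other scalings and filters, a replicate block and left-out libraries were alternatives. The fit was also run on simulated counts with genes drawn independently. These held no shift of gene groups by library, so the run does not bear on such shifts here. No 2 libraries agreed within sampling noise (chi-square per degree of freedom at least 201). Members, gene lists and alternatives were chosen with earlier results of these data known. Named members were, per complex, the 3 of smallest p, the one with most reads, preset subunits and isoform pairs, and for other lists the 2 of smallest p. Any other member is named by its estimate only. Transcript lengths came from GENCODE M21 (GRCm38) for 54 of 54 members, after matching Atp5pb and Atp5md by their older symbols, and promoters from RefSeq (GRCm38.p6). Protein sequences were not used here. The ETS motif and the promoters printed were chosen after the values were seen.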

Additional observations from a re-analysis of the deposited data

How the results depend on the processing

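DESeq2 called 512 genes and limma-voom 0, where edgeR called 0; edgeR called 2 without control replicate 2 and PB-MP replicate 3 and 0 to 1 with each library left out. None of these calls was a member. Members with lower values at an unadjusted p below 0.05 (4 with all libraries) numbered 2 with DESeq2 (background, the share of all genes in the same fit, 2.83%), 2 with no filter (2.97%), 2 without ribosomal and mitochondrial rows (4.18%), 2 with upper-quartile scaling (4.0%), 1 with a stricter filter (4.35%), 0 with library size only (1.74%), 28 with quality weights (9.56%), 38 without both libraries (11.4%) and 0 to 23 with each left out (2.84% to 7.09%). Those with higher values (0) numbered 1 with DESeq2 (5.58%), 1 with library size only (14.1%), 1 with quality weights (13.9%) and 0 to 1 with each left out (4.77% to 10.7%). Estimates below 0 numbered 33 to 52 with each library left out. Medians with each left out ran from -0.43 to -0.10 for all members, -0.38 to -0.082 for complex II, -0.37 to -0.068 for complex III, -0.72 to -0.11 for complex IV and -0.36 to -0.11 for complex V. Without both libraries they were -0.49 for all members, -0.50, -0.80 and -0.44 for complexes III, IV and V. Complex IV was at -0.65 with quality weights. With library size only, complexes III and V turned to 0.021 and 0.042, under the 0.23 of all genes. Single genes near 0 turned sign too: with library size only Cox7a2 (0.14), Cox6b2 (0.015), Cox7b (0.18), Atp5b (0.042) and Atp5g2 (0.16); with upper-quartile scaling Cox7b (0.0042); with quality weights Uqcrq (-0.49), Cox6c (-0.18) and Cycs (-0.15); without both libraries Uqcrq (-0.71), Cox6c (-0.32) and Cycs (-0.26); and Uqcrq with limma-voom (-0.11) and the replicate block (-0.12). With each library left out, Cox7a2 ran from -0.35 to 0.053, Cox6b2 from -0.98 to 0.19, Cox7b from -0.72 to 0.27, Atp5g2 from -0.33 to 0.083, Uqcrq from -0.64 to 0.36, Cox6c from -0.52 to 0.48 and Cycs from -0.29 to 0.30. The cause was not tested. Whether replicate numbers pair the libraries could not be told from 3 libraries a group (correlations of deviations of -0.0869, 0.0935 and 0.0816, own number best in 2 of 3). The replicate block left 44 estimates below 0, 4 lower members (3.73%) and 0 genes called. With 3 libraries a group, a 2-fold difference could not be bounded for the 14 members whose intervals reached past -1 or 1. Intervals lay within these limits for 45.7% of all genes.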
